A study of Mus musculus with 10 samples.

Results

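The nuclear factor I (NFI) family comprised the genes Nfia, Nfib, Nfic and Nfix, found by their symbols among the 50559 genes of the count tables. All 4 members were measured in all 10 RNA sequencing libraries of the study, and all 4 passed the filter on low counts that 29952 genes passed. The lowest count of any member in any library was 1084.

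The mouse samples comprised 4 MYC/SMARCA4 tumors, 3 P7 whole cerebella and 3 SHH medulloblastomas (SHH MB). For the MYC/SMARCA4 tumors, granule cell precursors (GCPs) of Math1-creERT2::Smarca4fl/fl pups, induced with tamoxifen at P3, were transduced with a lentivirus carrying murine Myc and GFP and transplanted into cerebella of immunodeficient CD1nu/nu mice. Cells were not sorted for recombination or transduction before transplantation, so hosts received a mixture. The tumor samples 1 to 4 were labelled with ages of 112, 96, 89 and 79 days. P7 cerebella were whole cerebella of Math1-creERT2::Smarca4fl/fl pups at 7 days after 0.4 mg tamoxifen at P3, so that these controls carried the Smarca4 deletion in part of their GCPs too. SHH MB arose in Math1-cre::Smofl/wt mice, in which the Math1 promoter directs an activated Smo allele to the granule cell lineage, and these samples were also labelled with 7 days. Both controls were thus younger than all tumors, and age and group cannot be told apart. RNA was obtained from formalin-fixed, paraffin-embedded (FFPE) tissue, for the tumors as biopsy punches, which hold all cells in their area. No label states more than that these were separate samples, so p-values measure only the spread between them.

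NFI proteins are transcription factors that bind DNA as homodimers or heterodimers at a palindrome of the motif TTGGC. In the developing cerebellum they are known for the maturation of postmitotic granule neurons, including axon and dendrite formation and expression of Gabra6, and elsewhere in the nervous system for the switch from neurogenesis to gliogenesis. Nfia and Nfib are best known for glial specification and granule neuron maturation, Nfix for quiescence and differentiation of neural progenitors, while Nfic is best known outside the brain, for tooth root formation.

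On GRCm39 with the GENCODE annotation, Nfia lies on chromosome 4 at 97660971 to 98007111 on the plus strand, and Nfib on chromosome 4 at 82208410 to 82623987 on the minus strand, 15 Mb away. Nfic is on chromosome 10 at 81232020 to 81291469 and Nfix on chromosome 8 at 85426505 to 85527046, both on the minus strand. Genes on the opposite strand overlap exons of Nfia (E130114P18Rik, Gm34218), Nfic (Gm16104, Gm53593) and Nfix (Trmt1, Lyl1, G430095P16Rik), but none overlaps an exon of Nfib. The strand setting of the counting is not given in the sources used here, so counts of Nfia, Nfic and Nfix may be uncertain where these partners overlap them.

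Nfia, Gabra6 and Fabp7 were picked as examples with their results known, and do not stand for the other members or linked genes. Gabra6, the receptor subunit of mature granule neurons, was higher in the tumors, and Fabp7, the radial glial fatty acid binding protein, was lower. Promoter sequences of these 3 genes are shown. These are the 250 bases before the start in RefSeq on build GRCm38.p6, written from 5′ to 3′ on the strand of the gene, at chr4:97581693-97581942 (plus) for Nfia, chr11:42321073-42321322 (minus) for Gabra6 and chr10:57784673-57784922 (plus) for Fabp7. Capitals mark the motif TTGGC or its reverse complement GCCAA.
Nfia: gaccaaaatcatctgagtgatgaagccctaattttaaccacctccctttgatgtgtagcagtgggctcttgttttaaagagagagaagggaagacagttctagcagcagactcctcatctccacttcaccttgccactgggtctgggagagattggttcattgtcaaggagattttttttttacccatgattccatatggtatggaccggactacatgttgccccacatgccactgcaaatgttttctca
Gabra6: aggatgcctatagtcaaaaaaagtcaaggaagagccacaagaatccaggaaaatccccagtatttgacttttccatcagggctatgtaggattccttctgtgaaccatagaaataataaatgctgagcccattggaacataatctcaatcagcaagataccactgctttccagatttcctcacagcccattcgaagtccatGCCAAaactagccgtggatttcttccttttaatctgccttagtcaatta
Fabp7: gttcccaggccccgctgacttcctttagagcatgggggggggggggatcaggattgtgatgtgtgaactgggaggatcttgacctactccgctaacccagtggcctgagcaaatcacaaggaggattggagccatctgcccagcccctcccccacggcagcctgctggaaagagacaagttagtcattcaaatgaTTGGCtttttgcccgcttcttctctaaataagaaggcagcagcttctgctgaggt

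The motif began 49 bases before the start of Gabra6 and 55 bases before that of Fabp7, while the window of Nfia held none. Windows on GRCm38.p6 were not matched to the gene positions on GRCm39 given above. The 1 window of Nfia therefore need not be its main promoter, and other starts of the gene were not examined. Over windows of 300 bases, from 250 before to 50 after the start, the motif was present on either strand in 46.7% of 32851 promoters of the RefSeq table. Of the 20 NFI-linked genes described below 14 had a window, and 12 of these had the motif in at least 1 of their windows, while Gfap and Slc1a3 had none. Among the members, Nfia, Nfic and Nfix had windows, and the motif was found in Nfix alone, in 3 of its 4 windows. The full palindrome, TTGGC and its reverse complement separated by 5 bases, was present in 0.0365% of all promoters and in no window of a member or linked gene, as was the case for the E-box CACGTG, the MYC motif, which 7.15% of all promoters held.

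Total counts ranged from 5663491 to 9352109 per library. Myc was higher in the 4 tumors, at 7.24 to 10.62 log2 CPM (counts scaled to the size of the library), than in P7 cerebella (3.72 to 3.85) and SHH MB (5.07 to 5.51). Counts per gene cannot separate Myc of the virus from that of the mouse. Smarca4 was measured at 7.08 to 7.92 log2 CPM in tumors, 7.78 to 8.13 in P7 cerebella and 8.93 to 9.19 in SHH MB, and counts over a whole gene do not show the loss of single exons.

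Tumor 1 stood apart from the other tumors. Its 5 proliferation markers (Mki67, Top2a, Cdk1, Ccnb1, Birc5) summed to 80.6 CPM, against 1389 to 1616 CPM in tumors 2 to 4. Myc and Smarca4 together were also lowest in tumor 1, at 357.5 CPM against 606.4, 1709 and 1243 CPM in tumors 2 to 4. Markers of mature granule neurons summed to 4933 CPM in tumor 1 against 312 to 2002 in the others, Purkinje cell markers to 10930 against 331 to 2614, and oligodendrocyte markers to 3874 against 103 to 773. Tumor 3 was lowest of the 4 in these last 3 lists. Mitochondrial genes held 6.36% of counts in tumor 1, 2.29 to 2.94% in tumors 2 to 4 and 1.25 to 1.59% in controls, rRNA-like genes 1.5 to 1.95% in tumors and 0.351 to 0.863% in controls, and the TMM scaling factor was 0.622 in tumor 1 against 0.807 to 1.27 in the other libraries. Their part in the results was not tested. With library sizes without these genes no call of a member changed. Scaling factors were computed anew there, so this alternative cannot show what part these shares had. Summed markers of choroid plexus were at 8.11 to 20.5 CPM in tumors and at 243 to 1224 CPM in both controls. In bulk tissue, fewer cells of a type and less RNA per cell cannot be told apart. Results that rested on tumor 1 are also given without it.

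**Figure D1:**
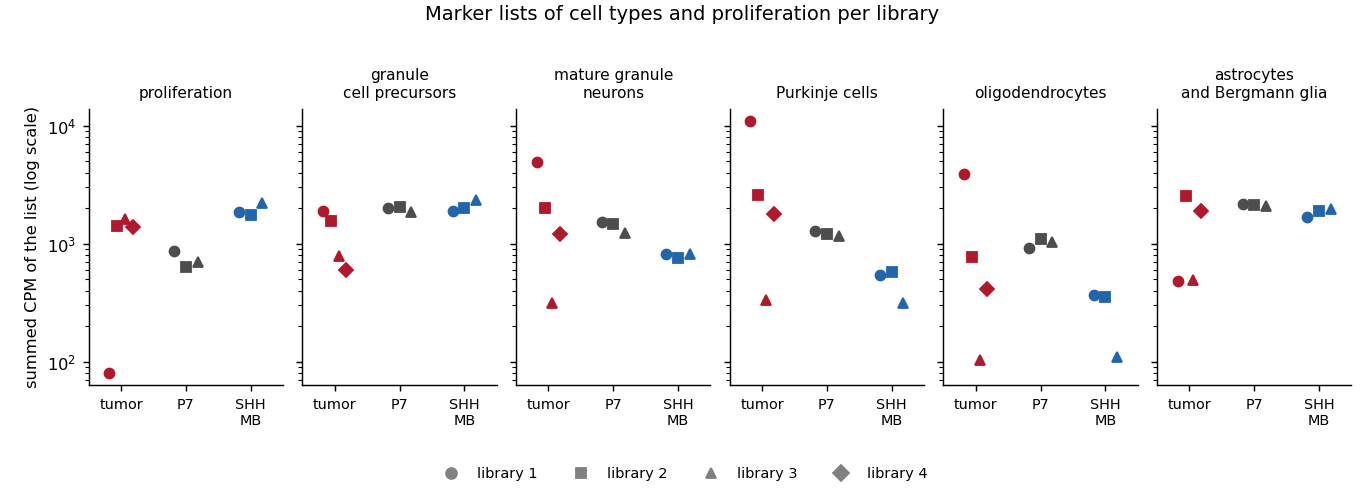
Summed CPM (y axis, log scale) of 6 marker lists, with 1 point per library, a column per group and the marker shape giving the library number. Tumor 1 (circle) had the lowest proliferation sum, 80.6 CPM, and the highest sums of mature granule neuron, Purkinje cell and oligodendrocyte markers. Within each control group the libraries lay closer together than the tumors did.

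Nfia was highest in SHH MB, intermediate in P7 cerebella and lowest in tumors. Its levels were 8.22, 9.35, 8.71 and 8.32 log2 CPM in tumors 1 to 4, 9.64, 9.61 and 9.77 in P7 cerebella, and 10.85, 10.98 and 11.16 in SHH MB. The 3 groups did not overlap, and the highest tumor, tumor 2, was still below the lowest P7 cerebellum. Shares of all genes without overlap between groups are given with each comparison below. Group means were 8.65 ± 0.51 (SD, n = 4), 9.67 ± 0.09 (SD, n = 3) and 11 ± 0.16 (SD, n = 3) log2 CPM.

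Nfib showed the same order of groups at a higher level. It was measured at 8.86, 10.26, 9.98 and 9.67 log2 CPM in tumors 1 to 4, at 10.67, 10.40 and 10.53 in P7 cerebella, and at 11.20, 11.20 and 11.30 in SHH MB. Groups did not overlap here either, but tumor 2 lay only just below the lowest P7 cerebellum, and tumor 1 lay far below the other tumors. Means were 9.69 ± 0.61 (SD, n = 4), 10.53 ± 0.13 (SD, n = 3) and 11.24 ± 0.06 (SD, n = 3) log2 CPM.

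Nfix also had its lowest group mean in tumors, but tumor 1 behaved differently. Levels were 9.11, 8.12, 7.26 and 7.80 log2 CPM in tumors 1 to 4, 9.08, 9.24 and 9.38 in P7 cerebella, and 9.79, 9.52 and 9.69 in SHH MB. Tumor 1, which was lowest for Nfia and Nfib, was highest for Nfix and lay within the range of P7 cerebella, whereas tumors 2 to 4 lay below all control samples. With all tumors the mean was 8.07 ± 0.78 (SD, n = 4) log2 CPM, and with tumors 2 to 4 alone it was 7.73 ± 0.44 (SD, n = 3), against 9.23 ± 0.15 (SD, n = 3) in P7 cerebella and 9.67 ± 0.13 (SD, n = 3) in SHH MB.

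Nfic was the member with the smallest differences between groups. It was found at 8.06, 7.95, 7.27 and 7.45 log2 CPM in tumors 1 to 4, at 7.45, 7.56 and 7.64 in P7 cerebella, and at 7.56, 7.24 and 7.51 in SHH MB. The groups overlapped throughout, with tumors 1 and 2 above and tumors 3 and 4 at or below the P7 cerebella. Means were 7.68 ± 0.38 (SD, n = 4), 7.55 ± 0.09 (SD, n = 3) and 7.44 ± 0.17 (SD, n = 3) log2 CPM.

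**Figure D2:**
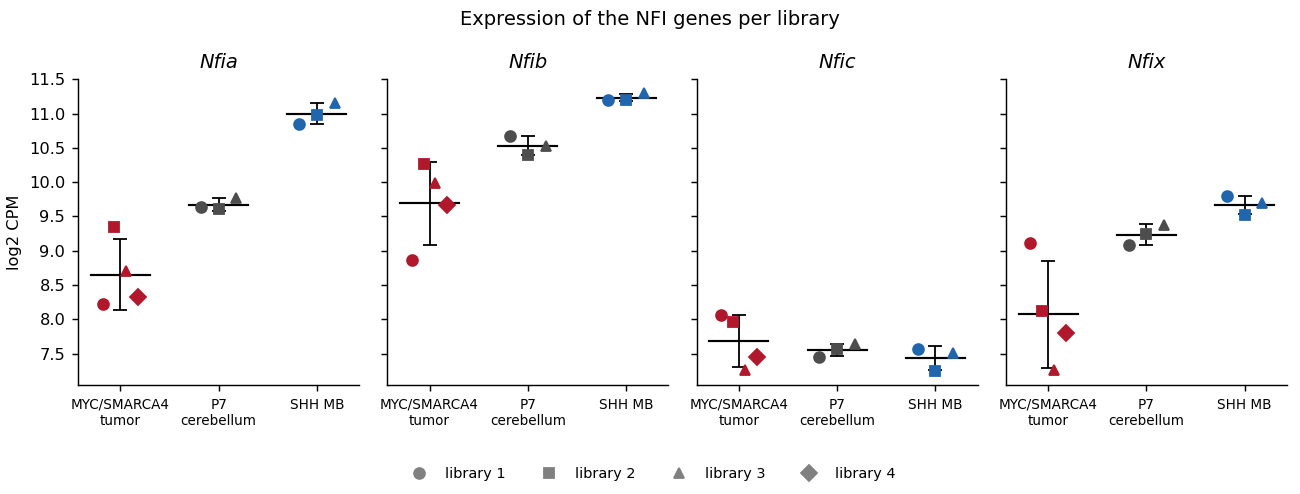
Level of each NFI gene (y axis, log2 CPM) in every library, with a panel per gene, a column per group, and the group mean with its SD in black. Nfia and Nfib were lowest in tumors and highest in SHH MB without overlap, Nfic overlapped, and tumor 1 (circle) was lowest for Nfib at 8.86 and highest for Nfix at 9.11.

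Comparison of tumors to SHH MB asked how the MYC-driven model differs from an established medulloblastoma model of the same lineage. Of the 4 members, 2 fell in the edgeR quasi-likelihood test over all genes, with a Benjamini-Hochberg adjusted p of at most 0.05 as the threshold, and none rose; 2.26% of all genes fell and 2.43% rose in this comparison. Nfia was 4.87-fold lower in tumors (log2 fold change -2.28, SE 0.35, adjusted p = 0.00294), and all 4 tumors were below all 3 SHH MB. Nfib was 2.74-fold lower (log2 fold change -1.45, SE 0.36, adjusted p = 0.0391), again in 4 of 4 tumors. In this comparison 8.3% of all genes were lower without overlap of the groups. The call of Nfib was lost in 11 of 18 alternative analyses, among them every one without a P7 cerebellum or an SHH MB sample and the one without tumor 4 (adjusted p = 0.104), whereas the call of Nfia was retained in all 18.

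For Nfix the tumors were also below all SHH MB, but the difference did not pass with all libraries (log2 fold change -1.43, SE 0.39, 95% interval -2.28 to -0.59, adjusted p = 0.0565). Without tumor 1, Nfix fell by 2.03 on the log2 scale (SE 0.25, edgeR adjusted p = 0.000339), and without tumor 3 the value was -1.40 with an adjusted p of 0.00813, where 13.9% of all genes fell. Nfia and Nfib were called without tumor 1 as well, at log2 fold changes of -2.27 (adjusted p = 0.000481) and -1.36 (adjusted p = 0.00446), so that 3 of 4 members fell where 4.75% of all genes did. The difference of Nfic was 0.28 (SE 0.27, 95% interval -0.31 to 0.87, adjusted p = 0.610), and 0.03 without tumor 1.

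Tumors and P7 cerebella were compared to set the model against cerebellar tissue of the donor genotype. The Smarca4 state was not matched between them. The paper found SMARCA4 protein lost in all tumor cells, whereas P7 cerebella carried the deletion only in part of their GCPs. With all libraries, 0 of 4 members passed the edgeR test, while 2.27% of all genes fell and 3.99% rose. At an unadjusted p below 0.05 there were 2 lower members, DESeq2 called 1 and limma on the deposited VST values called 0. In that edgeR test an unadjusted p of 0.0456 had only rank 7239 among all 29952 genes, both directions together. Over the alternatives, DESeq2 and limma among them, 0.50 to 22.8% of all genes fell. The log2 fold change was -0.95 for Nfia (SE 0.34, 95% interval -1.69 to -0.22, adjusted p = 0.108), -0.75 for Nfib (SE 0.36, 95% interval -1.54 to 0.03, adjusted p = 0.212), and -1.0 for Nfix (SE 0.39, 95% interval -1.84 to -0.16, adjusted p = 0.137). All 4 tumors were below all P7 cerebella for Nfia and Nfib and 3 of 4 were for Nfix. In this comparison 10.7% of all genes were lower without overlap of the groups.

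Without tumor 1, Nfix fell by 1.56 on the log2 scale against P7 cerebella (SE 0.24, edgeR adjusted p = 0.00122) and Nfia by 0.91 (SE 0.28, adjusted p = 0.0466), where 6.11% of all genes fell. Without tumor 3, the difference of Nfix was -0.99 (adjusted p = 0.0238) and that of Nfia -1.07 (adjusted p = 0.0369), but there 22.8% of all genes fell. Nfib remained above the threshold without tumor 1 (log2 fold change -0.63, adjusted p = 0.111). For Nfic the difference was 0.17 (SE 0.27, 95% interval -0.42 to 0.75, adjusted p = 0.700) with all tumors and turned to -0.06 without tumor 1.

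SHH MB and P7 cerebella were the 2 control groups. In the fit of all 10 libraries, 0 of 4 members passed, as few genes did in total (0.177% higher and 0.0467% lower). At an unadjusted p below 0.05, 1 member was higher, DESeq2 called 1 and limma 0. An unadjusted edgeR p of 0.0408 had rank 2247 among all 29952 genes here, both directions together. Over the alternatives 0.00 to 13.4% of all genes rose. The log2 fold changes of SHH MB over P7 cerebella were 1.33 for Nfia (SE 0.37, adjusted p = 0.264), 0.70 for Nfib (SE 0.39, adjusted p = 0.662), 0.44 for Nfix (SE 0.42, adjusted p = 0.843) and -0.11 for Nfic (SE 0.29, adjusted p = 0.953). The spread used in that fit is shared with the 4 tumors, whose SDs for Nfia, Nfib and Nfix were larger than those of both control groups. When the 2 control groups were fitted alone, Nfia rose by 1.35 (SE 0.12, edgeR adjusted p = 3.29e-09), Nfib by 0.72 (SE 0.12, adjusted p = 4.53e-05) and Nfix by 0.46 (SE 0.12, adjusted p = 0.00641) in SHH MB, so that 3 of 4 members were called where 13.4% of all genes rose. All 3 SHH MB were above all 3 P7 cerebella for these 3 genes, as was the case for 17.8% of all genes.

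**Figure D3:**
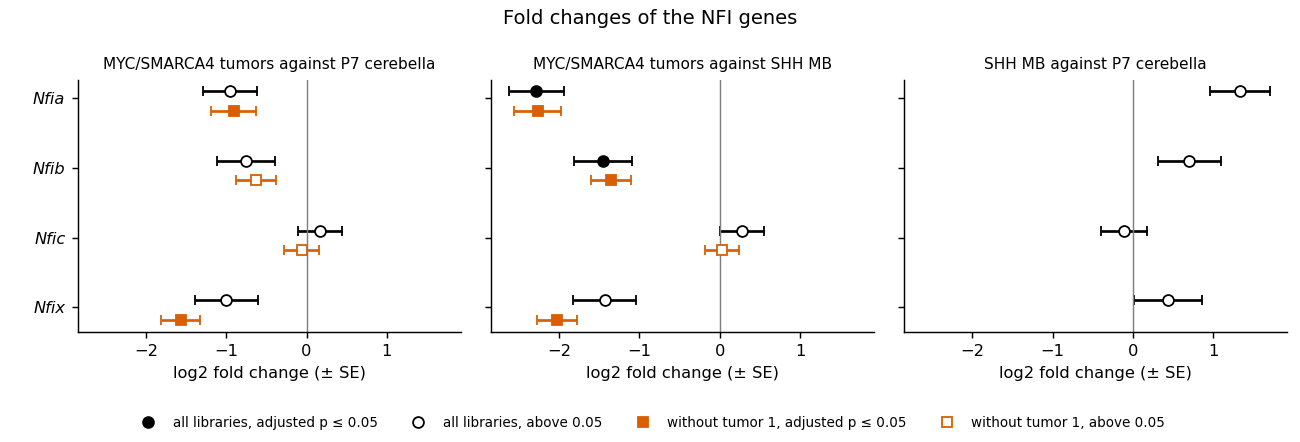
Log2 fold changes with SE (x axis) of the 4 NFI genes in the 3 comparisons, with all libraries (circles) and without tumor 1 (squares, tumor comparisons only), filled at an adjusted p of at most 0.05. Without tumor 1, Nfix moved from -1.0 to -1.56 against P7 cerebella and from -1.43 to -2.03 against SHH MB, while Nfic stayed near 0.

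No member reached the stricter threshold of the study, a log2 fold change of at least 2.5 in either direction with an adjusted p of at most 0.01, which 0.29% of genes passed in tumors against P7 cerebella, 0.601% against SHH MB and 0.01% between both controls. For single genes, log2 CPM was compared between groups with an exact permutation test (two-sided). The smallest p was 0.029 for Nfia and Nfib in tumors against SHH MB, which is the smallest that 4 against 3 samples can give, and over the 12 tests no Benjamini-Hochberg adjusted value was below 0.13. Between 3 SHH MB and 3 P7 cerebella no exact p below 0.1 is possible. The comparisons share libraries pairwise and are not independent.

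Levels of different members were compared per length, as CPM per kilobase of the union of annotated exons. The 4 members together summed to 163 ± 32.9 (SD, n = 4) CPM per kb in tumors, 272 ± 13.4 (SD, n = 3) in P7 cerebella and 465 ± 27.1 (SD, n = 3) in SHH MB, and each of the 4 tumors, at 134 to 207, was below each P7 cerebellum, at 261 to 287. P7 cerebella held 90.5 CPM per kb of Nfib, 81.2 of Nfix and 72.4 of Nfia, whose ranges overlapped between neighbours in this order, and 28.1 of Nfic, which lay below all others. In SHH MB the order was Nfia at 182, Nfib at 147, Nfix at 110 and Nfic at 26 CPM per kb, with no overlap between them. In tumors the ranges of all 4 members overlapped, from Nfib at 53.7 to Nfic at 31.5 CPM per kb.

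The composition of the family differed between samples. Nfia made up 36.0 to 41.0% of the summed per-length level in SHH MB, 26.3 to 27.0% in P7 cerebella and 15.6 to 28.0% in tumors. Nfic contributed 5.08 to 6.19% in SHH MB, 9.75 to 10.8% in P7 cerebella and 16.1 to 23.6% in tumors, without overlap. In tumor 1, Nfix alone contributed 44.1%, against 14.4 to 22.4% in tumors 2 to 4, and Nfib 16.7% against 36.2 to 43.4%.

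Ratios between members within a library do not depend on the scaling of that library. The log2 ratio of Nfic to Nfix was -0.90 to 0.16 in tumors, -1.59 to -1.47 in P7 cerebella and -2.14 to -2.03 in SHH MB, so that groups did not overlap, tumor 1 included. The log2 ratio of Nfia to Nfib was 0.19 to 0.40 in SHH MB, -0.49 to -0.21 in P7 cerebella and -0.81 to -0.10 in tumors, with overlap of the last 2 groups. Most variable was the ratio of Nfib to Nfix in tumors, from -1.40 in tumor 1 to 1.59, against 0.00 to 0.45 in P7 cerebella. When the length of the longest transcript was used instead, Nfib ranked above Nfia in SHH MB, with 41.1% against 33.7% of the sum, so that the order of these 2 genes depends on the length chosen, but differences between groups do not.

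**Figure D4:**
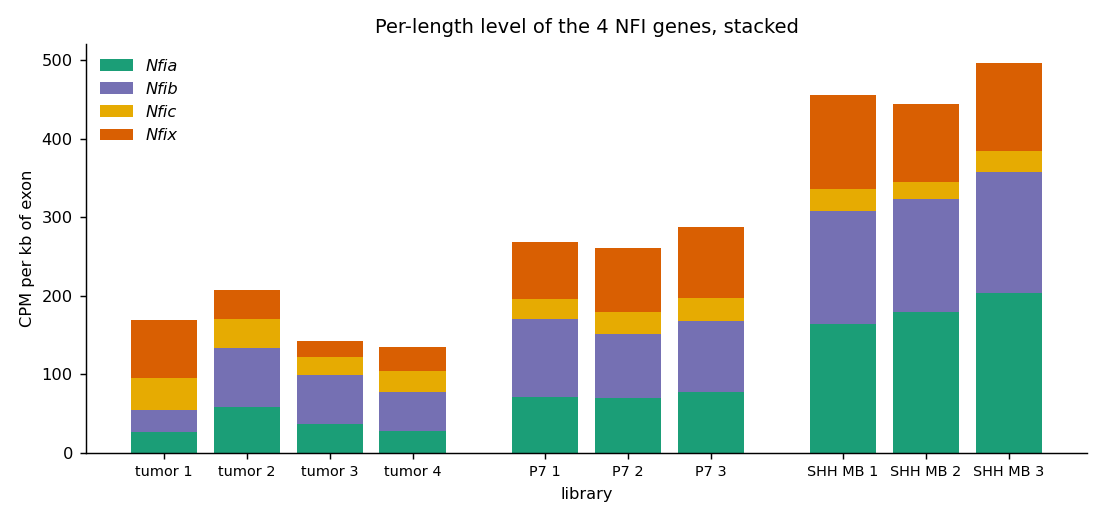
Stacked per-length levels of the NFI genes (y axis, CPM per kb of exon) for each library. Total height was 134 to 207 in tumors, 261 to 287 in P7 cerebella and 444 to 496 in SHH MB, and the largest part of the bar of tumor 1 was Nfix.

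A list of 20 genes linked to NFI factors was examined next, comprising targets in granule neurons, glial targets, progenitor genes, and partners or inducers (Sox9 is in the last 2 groups). All 20 were tested. The list was written by hand with earlier results of these data known. It mixes genes that NFI factors induce or repress with partners and inducers. Its pooled shares and medians therefore describe the list only and are no test of NFI activity. In tumors against P7 cerebella, 5 fell and 1 rose, that is 25% and 5% of the list where 2.27% and 3.99% of all genes fell and rose, with a median log2 fold change of -0.74 against -0.05 over all genes. Against SHH MB 4 fell and 1 rose, or 20% and 5%, where 2.26% and 2.43% of all genes did, with a median of -0.57 against 0.01 over all genes.

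Among the 5 genes of granule neuron differentiation, Gabra6 was the 1 gene called with all tumors included. This GABA-A receptor subunit, a late marker of granule neurons, had 1563, 970, 111 and 640 counts in tumors 1 to 4, 179, 165 and 68 in P7 cerebella, and 17, 30 and 16 in SHH MB. It rose in tumors 10.6-fold over P7 cerebella (log2 fold change 3.41, SE 0.80, edgeR adjusted p = 0.0278) and 57.4-fold over SHH MB (5.84, SE 0.92, adjusted p = 0.00388), although log2 CPM of tumor 3 lay within the range of P7 cerebella. Gabra6 followed the summed markers of mature granule neurons, which include it, with tumor 1 highest and tumor 3 lowest, and their part in the result was not tested. Without tumor 1 the differences were 2.41 (adjusted p = 0.0160) and 4.83 (adjusted p = 0.000971). With limma on the deposited VST values the call of Gabra6 against P7 cerebella was lost (2.62, adjusted p = 0.0597), and that against SHH MB was retained (4.51, adjusted p = 0.00276).

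Cntn2, the contactin of premigratory granule cells and their early axons, was measured at 8.94 log2 CPM in tumor 1 and at 5.67 to 7.11 in tumors 2 to 4, against 9.04 to 9.21 in P7 cerebella and 7.49 to 8.13 in SHH MB. With all tumors it was not called (log2 fold change -1.52, SE 0.58, adjusted p = 0.127, against P7 cerebella). Without tumor 1 it fell by 2.63 against P7 cerebella (edgeR adjusted p = 0.000267) and by 1.37 against SHH MB (adjusted p = 0.0127). Efnb1, Cdh2 and Itsn1, the remaining genes of this group, were not called against either control.

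Glial targets included the 4 genes that fell against P7 cerebella, Fabp7, Aqp4, Apcdd1 and Mmd2, of 7 tested, where 2.27% of all genes fell. Fabp7 had 16, 151, 17 and 299 counts in tumors 1 to 4, against 2170 to 3026 in P7 cerebella and 1641 to 2301 in SHH MB, and was 17.6-fold (log2 fold change -4.14, SE 0.72, edgeR adjusted p = 0.00943) and 15.5-fold lower (log2 fold change -3.96, SE 0.71, adjusted p = 0.00838), respectively. Apcdd1, which NFIA induces together with Mmd2 in glial precursors, fell against P7 cerebella by 1.45 (SE 0.34, adjusted p = 0.0302) and against SHH MB by 2.33 (SE 0.35, adjusted p = 0.00285). Aqp4, the astrocytic water channel, fell by 3.01 against P7 cerebella (SE 0.69, adjusted p = 0.0259), and Mmd2 by 1.29 (SE 0.33, adjusted p = 0.0407).

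Gfap, Slc1a3 and Zcchc24 were not called against either control. Against SHH MB, Fabp7 and Apcdd1 fell and the other 5 of these 7 genes were not called. Summed astrocyte and Bergmann glia markers, which share Gfap, Aqp4 and Slc1a3 with this group, were at 480, 2530, 493 and 1887 CPM in tumors 1 to 4, 2086 to 2152 in P7 cerebella and 1698 to 1988 in SHH MB, so that only tumor 2 was not below all P7 cerebella. Slc1a2 alone, a glutamate transporter, gave 1544 CPM in tumor 2 and 1329 CPM in tumor 4, against 532 to 570 in P7 cerebella, and without it the sums were 362, 985, 105 and 557 CPM in tumors 1 to 4, 1554 to 1608 in P7 cerebella and 809 to 913 in SHH MB. Of all genes, 2.27% fell against P7 cerebella and 2.26% against SHH MB. Of the 7 astrocyte and Bergmann glia markers 3 fell against P7 cerebella (Aqp4, Aldh1l1, Gdf10) and 1 fell against SHH MB (Aldh1l1). Their median log2 fold change against P7 cerebella was -1.41. This is the value of Gfap, which is in both lists and is also the median of the glial targets, so both medians are the same value. Counts of called glial genes were the same without tumor 1, with 4 against P7 cerebella and 2 against SHH MB. The share of all genes that fell was larger there, at 6.11% against P7 cerebella and 4.75% against SHH MB. The part of glial content in these differences was not tested.

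Of the progenitor genes, Hes1, a Notch effector, was higher in SHH MB than in both other groups. It was measured at 4.48 to 4.99 log2 CPM there, at 2.39 to 2.88 in P7 cerebella and at 2.01 to 3.31 in tumors. Hes1 was 4.07-fold lower in tumors than in SHH MB (log2 fold change -2.02, SE 0.33, edgeR adjusted p = 0.00507) and rose by 2.1 from P7 cerebella to SHH MB (SE 0.36, adjusted p = 0.0393), while tumors and P7 cerebella differed by 0.08 (95% interval -0.65 to 0.82). It was the 1 linked gene called between both controls in the fit of all libraries, where 0 fell. At an unadjusted p below 0.05, 3 linked genes were lower and 6 higher. For all 29952 genes, both directions together, an unadjusted edgeR p of 0.0408 had rank 2247 in this comparison. When the 2 control groups were fitted alone, 6 of the 20 linked genes fell and 7 rose in SHH MB, where 10.3% of all genes fell and 13.4% rose, and the largest rises besides Hes1 were those of Pou3f2 (1.81, edgeR adjusted p = 3.76e-11) and Sox9 (1.66, adjusted p = 1.03e-10).

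Sox9, an inducer of Nfia in gliogenesis, had the same order of groups as Nfia, but not the same order of tumors 1 to 4. It had 3.34, 4.90, 1.79 and 4.51 log2 CPM in tumors 1 to 4, 5.80, 5.98 and 6.05 in P7 cerebella, and 7.41, 7.52 and 7.78 in SHH MB, with no overlap. Of all genes, 10.7% were lower without overlap in tumors against P7 cerebella and 8.3% against SHH MB. From P7 cerebella to SHH MB 17.8% were higher without overlap. Sox9 fell in tumors by 1.91 against P7 cerebella (SE 0.51, edgeR adjusted p = 0.0463) and by 3.55 against SHH MB (SE 0.54, adjusted p = 0.00294). Ezh2, a methyltransferase known to be repressed by NFI factors, had a log2 fold change of -0.63 against SHH MB (SE 0.32, adjusted p = 0.298), and neither Insc nor Bbx was called.

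The neural POU factor Pou3f2 was lowest in tumor 1. Its counts were 15 in tumor 1 and 418 to 781 in tumors 2 to 4, against 533 to 756 in P7 cerebella and 1368 to 2087 in SHH MB. Against SHH MB the value was -1.93 (SE 0.64, adjusted p = 0.112) with all tumors, and without tumor 1 Pou3f2 fell by 1.65 (edgeR adjusted p = 0.000466). Etv1, an activity-dependent partner of NFI in granule neurons, had levels of 9.28, 7.81, 4.45 and 7.18 log2 CPM in the 4 tumors and of 5.05 to 5.70 in the controls, with a log2 fold change of 2.66 (SE 0.76, adjusted p = 0.0566) over P7 cerebella and of 2.42 (SE 0.75, adjusted p = 0.0897) over SHH MB. Without tumor 1 these values of Etv1 were 1.58 (adjusted p = 0.0678) and 1.32 (adjusted p = 0.166). Nfatc4, which holds back maturation genes at NFI sites, was not called in any comparison with all libraries.

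**Figure D5:**
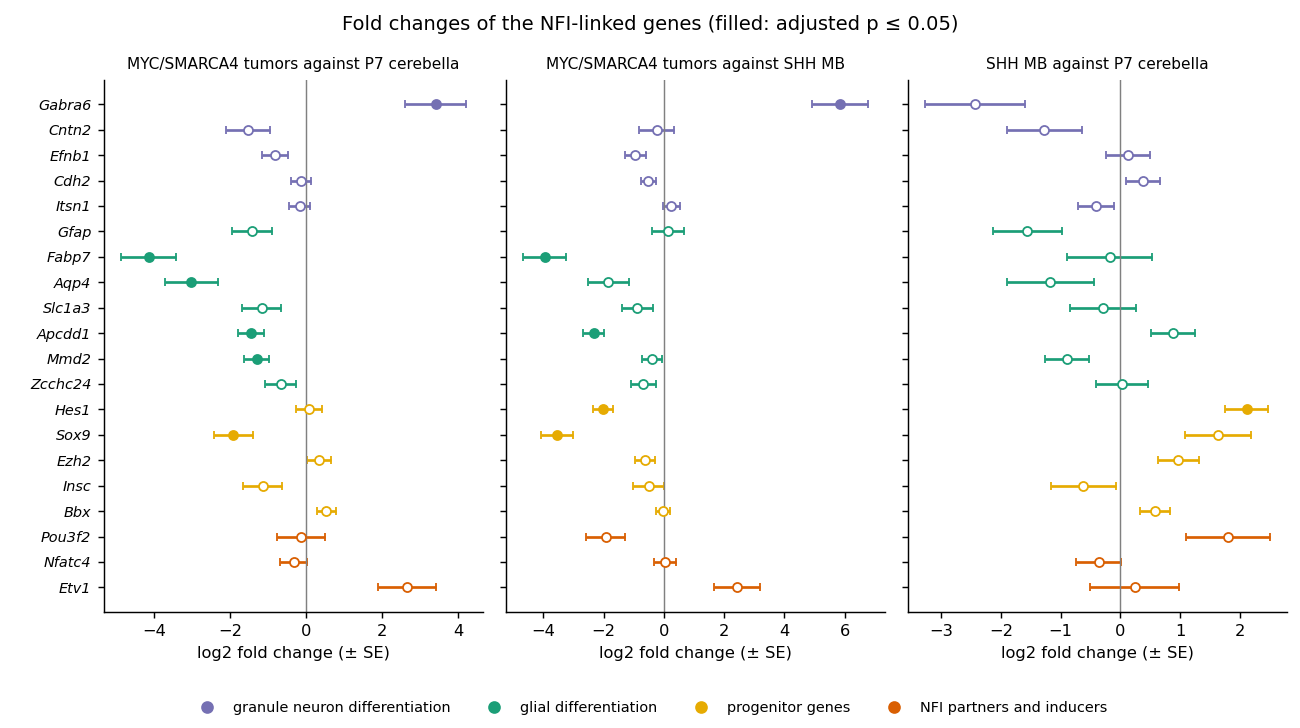
Log2 fold changes with SE (x axis) of 20 NFI-linked genes in the 3 comparisons, coloured by group (Sox9 is drawn as a progenitor gene) and filled at an adjusted p of at most 0.05. Gabra6 rose in tumors, at 3.41 and 5.84, while Fabp7, Apcdd1 and Sox9 fell against both controls.

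The genes whose pattern was most like that of a member were found by Pearson's r of log2 CPM over the 10 libraries, among 6690 genes with a mean log2 CPM of at least 5. The libraries share 3 groups and tumor 1, so that r is given as a description. Nfia was closest to Rassf4 (r = 0.980), and Rassf4 was also the fourth closest gene of Nfib (r = 0.971). Closest to Nfib was Draxin, an axon guidance factor (r = 0.985), and closest to Nfix was Bcas1, known from early myelinating oligodendrocytes (r = 0.986). Nfic was closest to Ppp1r37 (r = 0.955) and second closest to Scn8a, a neuronal sodium channel (r = 0.929). Between members r was 0.950 for Nfia and Nfib, 0.728 for Nfia and Nfix, 0.552 for Nfib and Nfix, and -0.521 for Nfib and Nfic.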

How the data were processed

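RNA was sequenced from 10 FFPE samples after depletion of ribosomal RNA. Per the labels, the authors trimmed reads with Trimmomatic 0.38.1, aligned them to GRCm39 with STAR 2.7.8a and counted them with featureCounts 2.0.1; raw counts were deposited for every gene. A second deposited table holds log2-scale values of 46123 genes, which the authors derived by variance stabilization (VST) in DESeq2. RNA from FFPE tissue is fragmented, which can make coverage along genes uneven.

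Samples were grouped by their labels. Counts were tested with edgeR 4.0.16 in R 4.3.3 (quasi-likelihood test, mean per group over all 10 libraries, TMM factors, filterByExpr by group), and p-values were adjusted over 29952 genes. Dispersion was 0.178 in common, with 5.87 prior degrees of freedom. Levels are log2 CPM with TMM factors and a prior count of 2, and CPM without a prior count in sums and per kb. Exact permutation tests were two-sided. Libraries held 5663491 to 9352109 counts and each member at least 1084 per library, so that counting error was small beside the spread between samples. Alternatives were DESeq2 1.42.0, limma 3.58.1 on VST values, RLE factors, no filter, only the 2 groups compared, a replicate block, library sizes without mitochondrial and rRNA-like genes, robust estimation, each library left out, a prior count of 0.5, and the longest transcript as length. Tools were tested on simulated data.

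Named are the 4 members, genes of the lists written by hand, the 5 genes closest to each member, and Myc and Smarca4. Members and lists were chosen with earlier results of these data known. Protein sequences and the promoter of Nfib were not used here.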

Additional observations from a re-analysis of the deposited data

How the results depend on the processing

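Of 216 alternative values of the members with a test, 187 kept direction and side of the threshold, 17 gained a call, 11 lost it and 1 reversed. Nfia against SHH MB was called in all 18 alternatives (-2.57 to -2.19). Nfib against SHH MB lost its call without the filter (-1.46, adjusted p = 0.0523), with limma on VST values (-1.52, 0.0710), with only the 2 groups compared (-1.51, 0.121) and with the replicate block (-1.47, 0.165), and ranged from -1.66 to -1.36 with single libraries left out. Nfix against SHH MB was called in 7 of 18 alternatives, as many as Nfib. These were DESeq2 (-1.41, 0.00925), robust estimation (-1.43, 0.0498), and the fits without tumor 1, without tumor 3 or without any 1 P7 cerebellum. The last had adjusted p of 0.041 to 0.0434, although P7 cerebella are not part of this comparison. Nfix ranged from -2.03 to -1.38 with a library left out. Against P7 cerebella, Nfia was called by DESeq2 (-0.89, 0.0461). Leaving out a library gave -1.24 to -0.87 for Nfia, -0.95 to -0.63 for Nfib, -1.56 to -0.96 for Nfix, and -0.06 to 0.19 for Nfic, which reversed to -0.06 without tumor 1. In SHH MB against P7 cerebella, Nfia was called by DESeq2 (1.38, 0.00711), with only these 2 groups (1.35, 3.29e-09) and without tumor 1 (range without a library 1.28 to 1.43), and with only these 2 groups Nfib (0.72) and Nfix (0.46) were called too. Causes of these changes were not tested. Among linked genes, DESeq2 gave no adjusted p for Aqp4 and called Etv1 against P7 cerebella (0.00204) and SHH MB (0.00709).

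The length of the longest transcript moved shares of the per-length sum to 22.8% in P7 cerebella and 33.7% in SHH MB for Nfia, to 43.0% and 41.1% for Nfib, to 26.2% and 20.8% for Nfix, and to 15.3% in tumors, 8.07% in P7 cerebella and 4.38% in SHH MB for Nfic. The percentage of all genes called varied widely. In tumors against P7 cerebella it was 0.50 to 22.8% lower and 0.109 to 11.8% higher, against SHH MB 0.789 to 13.9% and 0.166 to 9.57%, and between both controls 0.00 to 10.3% and 0.00 to 13.4%. The lowest values came from leaving out a control sample and the highest from leaving out tumor 3 or fitting only the 2 controls.

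Same-numbered samples of different groups had correlations of their deviations from -0.274 to 0.162. No pairing by number was seen, but these values cannot exclude one, since they have no reference to be set against. The replicate block, with -2.21 for Nfia against SHH MB, is given as an alternative only. Dixon's test of 15 values over the 4 tumors found 0 outliers.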
